A study of Mus musculus with 42 samples.

Results

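Whole-blastocyst outgrowths (BOs) were followed here from day 3 to day 9 after plating, on 11 of the 42 arrays of the series. They are replicates 2 and 3 of BO-3 and replicates 1 to 3 of BO-5, BO-7 and BO-9, chosen by their labels alone, and no inner cell mass (ICM) or ESC array entered any comparison. The study followed mouse embryos from the ICM to embryonic stem cells (ESCs) on Illumina bead arrays, and these outgrowths were measured in a run of 18 arrays. All groups came from BALB/c blastocysts at E3.5, plated without zona on gelatin in N2B27 with R2i and LIF, and the labels tell the groups apart by days of culture alone. R2i is 1 µM PD0325901, an inhibitor of MEK, with 10 µM SB431542, which blocks the type I receptors of TGF-β, Activin and Nodal, and LIF was given at 1000 U/ml. No whole-blastocyst outgrowth on these arrays was grown without R2i, and each replicate is a pool of 20 to 30 outgrowths. Total RNA was amplified in 2 rounds before labelling.

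A blastocyst holds 3 lineages. The epiblast gives rise to ESCs, the primitive endoderm lines the blastocoel and forms the yolk sac, and the trophectoderm attaches to the substrate and gives rise to trophoblast stem cells and giant cells of the placenta. Because whole blastocysts were plated, RNA of all 3 can be present, and in such bulk samples fewer cells of a type and less RNA per cell cannot be told apart. Defining markers of each lineage were detected in the outgrowths, with a detection p under 0.05 on all 11 arrays for Pou5f1, Sox2, Nanog, Cdx2, Elf5, Krt8, Krt18, Gata3, Gata6, Sox17, Pdgfra and Dab2. Gata4, of the primitive endoderm, Tpbpa, of the spongiotrophoblast, Ptprc, of blood cells, Hbb-y, of embryonic red cells, and Col1a1, of mesenchyme, were detected on 0 of the 11 arrays. Of the other mesenchymal collagens, Col1a2 was detected on 0, 1, 2 and 2 arrays of days 3, 5, 7 and 9, and Col3a1 on at most 1 array. Prl2c2, of giant cells, was detected on every array. Csf1r, of macrophages, lay between 5.62 and 6.35 and Cdh5, of endothelium, between 5.50 and 6.89, both detected on every array.

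The arrays fell in the order of their days along the first principal component, which held 36.2% of the variance. BO-9 replicate 2 stood apart from the other BO-9 arrays on the second component, with 36.7 against -9.73 and -15.5, and its r with them was at most 0.975 where that between BO-9 replicates 1 and 3 was 0.991. BO-3 replicate 1, not among the 11, had 26.2% of probes detected against 30.3% to 35.4% on the 11 arrays, and was dimmer than all of them. Results were computed with it and without it, and without BO-9 replicate 2, and changes of calls in either are given beside the main gene groups below. Gapdh lay between 11.11 and 11.91 and Hprt between 11.97 and 12.87, while Actb ran from 9.81 to 12.05 and was highest at day 9 in BO-9 replicate 2, with 12.04 against 10.34 and 9.81.

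**Figure D1:**
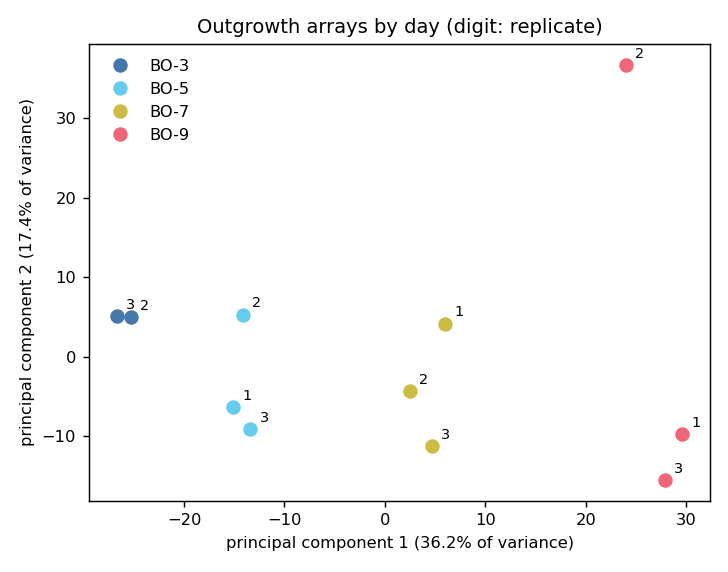
Each point is 1 outgrowth array, placed by its scores on the first principal component (x axis) and the second (y axis) of 10961 genes, coloured by day and numbered by replicate. Days 3 to 9 follow each other from left to right, and BO-9 replicate 2 lies at 36.7 on the second component, away from replicates 1 and 3 of its day.

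A pair of measures were taken of each gene's course, the slope of its normalized log2 level on day and the difference BO-9 minus BO-3, each called where limma gave a change of 2-fold or more over the 6 days and a Benjamini-Hochberg adjusted p no higher than 0.05. Of 10961 genes tested, 272 rose by the slope (2.48% of those tested) and 345 fell (3.15%). By the difference 262 were higher in BO-9 (2.39%) and 356 lower (3.25%), or 618 genes in all (5.64%), and 235 rises and 314 falls were called by both. Counts of called genes in the lists below are to be set beside these shares. In the rest of the text a gene is called by the difference unless the slope is named, levels are normalized log2 intensities that compare arrays and not genes, the error of a difference is its standard error, and that of a day mean is the SD over 2 arrays on day 3 and 3 on later days. Arrays said to be left out were left out 1 at a time. The arrays of day 3 and day 9 did not overlap for 40.3% of all genes, so that a lack of overlap is common. The median difference over all genes was 0.02. With BO-3 replicate 1 added the split turned to 324 higher and 254 lower, and 436 of the 618 called genes were called again. Without BO-9 replicate 2 the counts were 313 and 434. A further measure, a departure of the 4 day means from a straight line, was called for 78 genes (0.712%), described last.

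**Figure D2:**
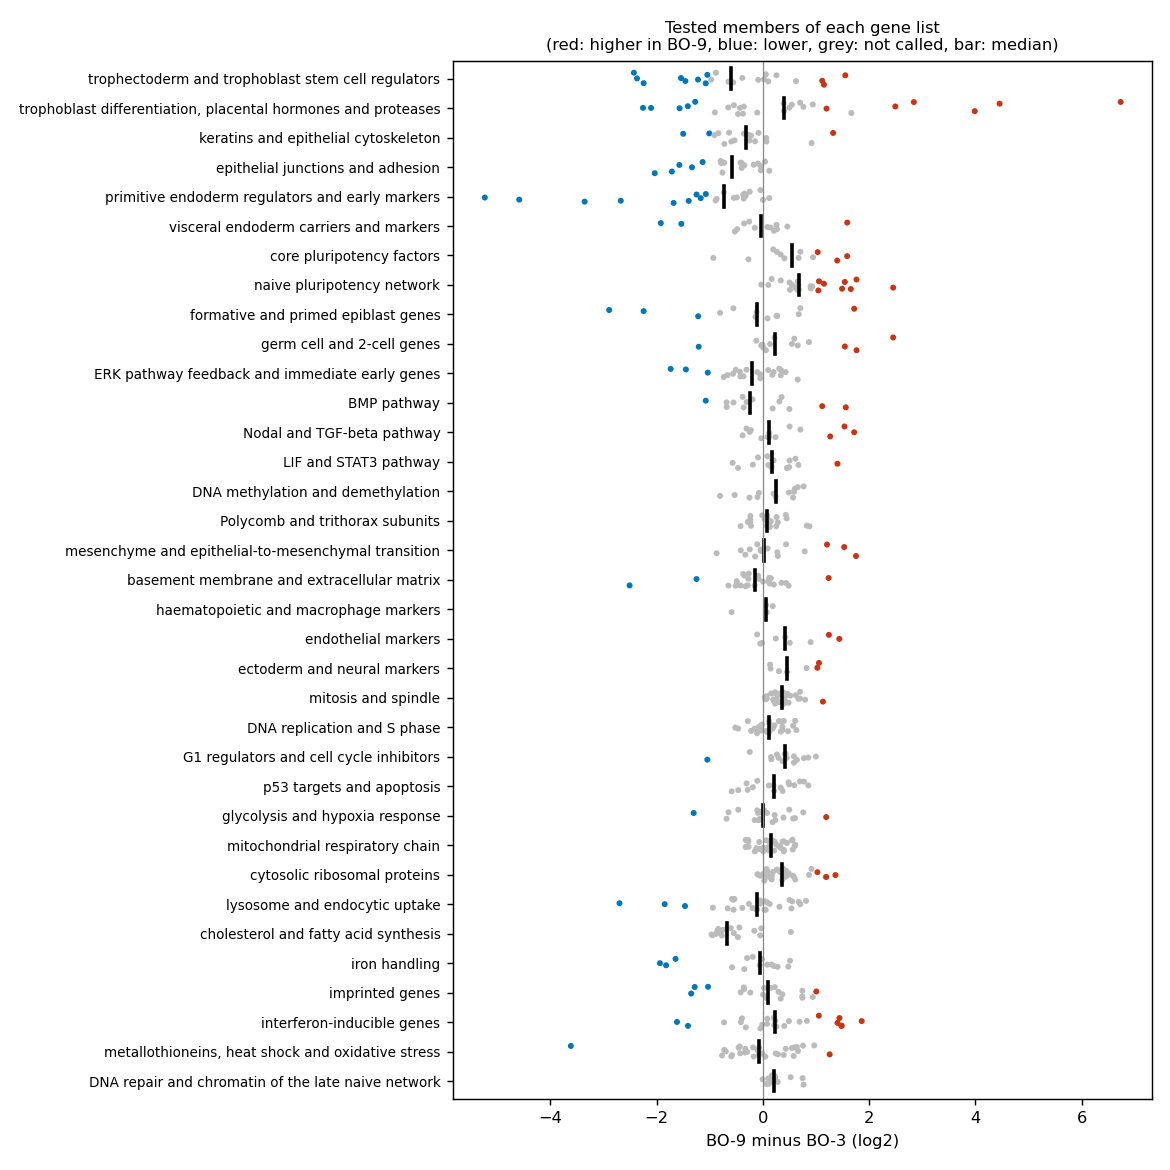
Each point is a tested gene of the list named at the left, placed by BO-9 minus BO-3 on the log2 scale (x axis), red where higher in BO-9, blue where lower, and grey where not called, and the black bar is the list's median. The primitive endoderm list holds 9 lower and 0 higher genes, the naive pluripotency list 8 higher and 0 lower, and the trophoblast lists hold both.

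Among the steepest falls were those of the receptor complex with which primitive endoderm takes up proteins. Of 23 tested genes of a primitive endoderm list 9 were lower in BO-9 and 0 higher, and the list's median difference was -0.74. Amn, or amnionless, which anchors cubilin at the cell surface, measured 12.01 and 11.88 on the BO-3 arrays, 6.63, 7.98 and 6.64 on the BO-5 arrays, 6.77, 6.83 and 6.60 on the BO-7 arrays and 6.71, 7.08 and 6.33 on the BO-9 arrays. Its level dropped before day 5, and from day 5 to day 9 the day means stayed between 7.08 and 6.71. The difference was -5.23 ± 0.34 log2, adjusted p = 1.51e-06, a 37.6-fold fall. Cubn, the cubilin receptor itself, measured 8.76 and 8.92 on the BO-3 arrays, 4.32, 4.30 and 4.30 on the BO-5 arrays, 4.24, 4.19 and 4.33 on the BO-7 arrays and 4.27, 4.23 and 4.26 on the BO-9 arrays, and it was detected on both BO-3 arrays and on 0 of the other 9. Since no BO-9 array detected it, its fall is at least 18.3-fold (adjusted p = 1.01e-09).

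The last receptor of the complex, Lrp2 or megalin, fell over more days, with 11.28 and 11.13 on the BO-3 arrays, 8.95, 9.29 and 8.60 on the BO-5 arrays, 8.13, 8.01 and 7.76 on the BO-7 arrays and 8.12, 7.20 and 8.21 on the BO-9 arrays. The arrays of day 3 and day 9 did not overlap, and the difference was -3.36 ± 0.28 log2, adjusted p = 9.85e-06. A second Lrp2 probe that was kept changed by only -0.09. Dab2, the adaptor that carries megalin into endosomes, fell at each step, from day means of 11.83 ± 0.10, 10.67 ± 0.10, 9.64 ± 0.18 and 9.15 ± 0.11 (SD, n = 2 at day 3 and 3 at later days), by 6.39-fold in all (-2.68 ± 0.16 log2, adjusted p = 6.78e-07).

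The transcription factors of the lineage fell less. Gata6, which specifies primitive endoderm, had day means of 10.08 ± 0.16, 8.80 ± 0.21, 8.92 ± 0.23 and 8.69 ± 0.17, and nearly all of its fall lay between days 3 and 5 (-1.40 ± 0.19 log2, adjusted p = 0.000333). Foxq1 (-1.68, adjusted p = 0.000216), Sox17 (-1.17, adjusted p = 0.01) and the laminin chain Lamb1 (-1.25, adjusted p = 0.00133) were lower as well, as was the receptor Pdgfra (-1.07, adjusted p = 0.0144). Sox7 had -0.87 and the collagen Col4a1 -0.37 (adjusted p = 0.545), neither called. Sox17 was not called without BO-3 replicate 2 (-1.02, adjusted p = 0.121), and Pdgfra, whose second kept probe changed by -0.11, was not called without either BO-3 array, without BO-9 replicate 2 (-1.16 to -0.99, adjusted p of 0.0241 to 0.13) or when BO-3 replicate 1 was added (-0.79, adjusted p = 0.111). The list held 8 lower genes without BO-9 replicate 2 and 8 with BO-3 replicate 1 added.

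Genes of the visceral endoderm, the layer that forms from primitive endoderm, did not share 1 course. Ttr, the thyroxine carrier, measured 8.53 and 8.93 on the BO-3 arrays, 6.16, 6.40 and 6.24 on the BO-5 arrays, 6.17, 6.18 and 6.56 on the BO-7 arrays and 8.55, 7.59 and 8.60 on the BO-9 arrays, so that it was low on days 5 and 7 and high on days 3 and 9, and its departure from a line was called (adjusted p = 0.000309). Spink1, a trypsin inhibitor, followed the same course with day means of 10.30 ± 0.08, 6.49 ± 0.16, 7.09 ± 0.34 and 8.38 ± 0.48 (adjusted p of the departure = 2.61e-05). BO-3 replicate 1 measured 6.64 for Ttr, below both other BO-3 arrays, and with it added the departure of Ttr was no longer called (adjusted p = 0.127). Apoe, an apolipoprotein, rose (1.59 ± 0.24 log2, adjusted p = 0.00086), while Spink1 was lower on day 9 than on day 3 and Dkk1, a Wnt inhibitor, fell by at least 2.35-fold. Afp, the main secreted protein of the yolk sac, was detected on 0 arrays. Of the 14 tested genes of this list 1 was higher and 2 were lower in BO-9.

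A few genes of iron transport and of the lysosome fell too. Slc11a2, which carries iron across membranes, fell from 9.47 and 9.58 on the BO-3 arrays to 7.41, 7.81 and 7.53 on the BO-9 arrays (-1.94, adjusted p = 1.23e-05), though its kept probes ran from -1.94 to -0.33 and their mean fell just short of 2-fold. Slc40a1, or ferroportin, the iron exporter, held near its first level until day 7 and then fell, with day means of 14.10 ± 0.22, 14.00 ± 0.13, 13.68 ± 0.21 and 12.45 ± 0.13 (-1.64, adjusted p = 5.63e-05), and was not called where the spread was estimated over 17 arrays, ICM and ESC included (adjusted p = 0.163). Heph, the ferroxidase that works with it, also fell after day 5 (-1.82, adjusted p = 3.24e-05), with kept probes from -1.82 to -0.31, and the other 12 of the 15 tested iron genes were not called. Of 29 lysosomal genes 3 were lower, namely the proteases Ctsc (-2.70, adjusted p = 2.79e-06) and Ctsh (-1.85, adjusted p = 0.000252) and the saposin precursor Psap (-1.47, adjusted p = 0.00063), and 0 were higher. Both counts were the same without BO-9 replicate 2 and with BO-3 replicate 1 added.

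The glutathione transferases Gsta1 and Gsta2, which conjugate toxic compounds, fell at each step. Gsta2 measured 11.01 and 11.24 on the BO-3 arrays, 10.26, 10.15 and 10.23 on the BO-5 arrays, 8.47, 8.57 and 8.64 on the BO-7 arrays and 7.18, 7.00 and 7.12 on the BO-9 arrays. No array of one day overlapped with those of the next, the slope was -0.70 ± 0.03 per day (adjusted p = 6.29e-09), and the fall came to 16.2-fold. Gsta1 fell by 12.3-fold (-3.62 ± 0.20 log2, adjusted p = 5.63e-07). The pair is closely alike in sequence, so that their probes may not tell them apart. A list of metallothioneins, heat shock and oxidative stress genes holds Gsta1 but not Gsta2. Of its 31 tested genes Gsta1 was the only one lower and Gpx3 the only one higher in BO-9 (1.26, adjusted p = 0.0235). Over all genes 3.25% were lower and 2.39% higher, so that 1 call each way says little about this list. Gpx3 was not called without either BO-3 array or without BO-9 replicate 1 or 3 (1.00 to 1.42, adjusted p of 0.0666 to 0.194).

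**Figure D3:**
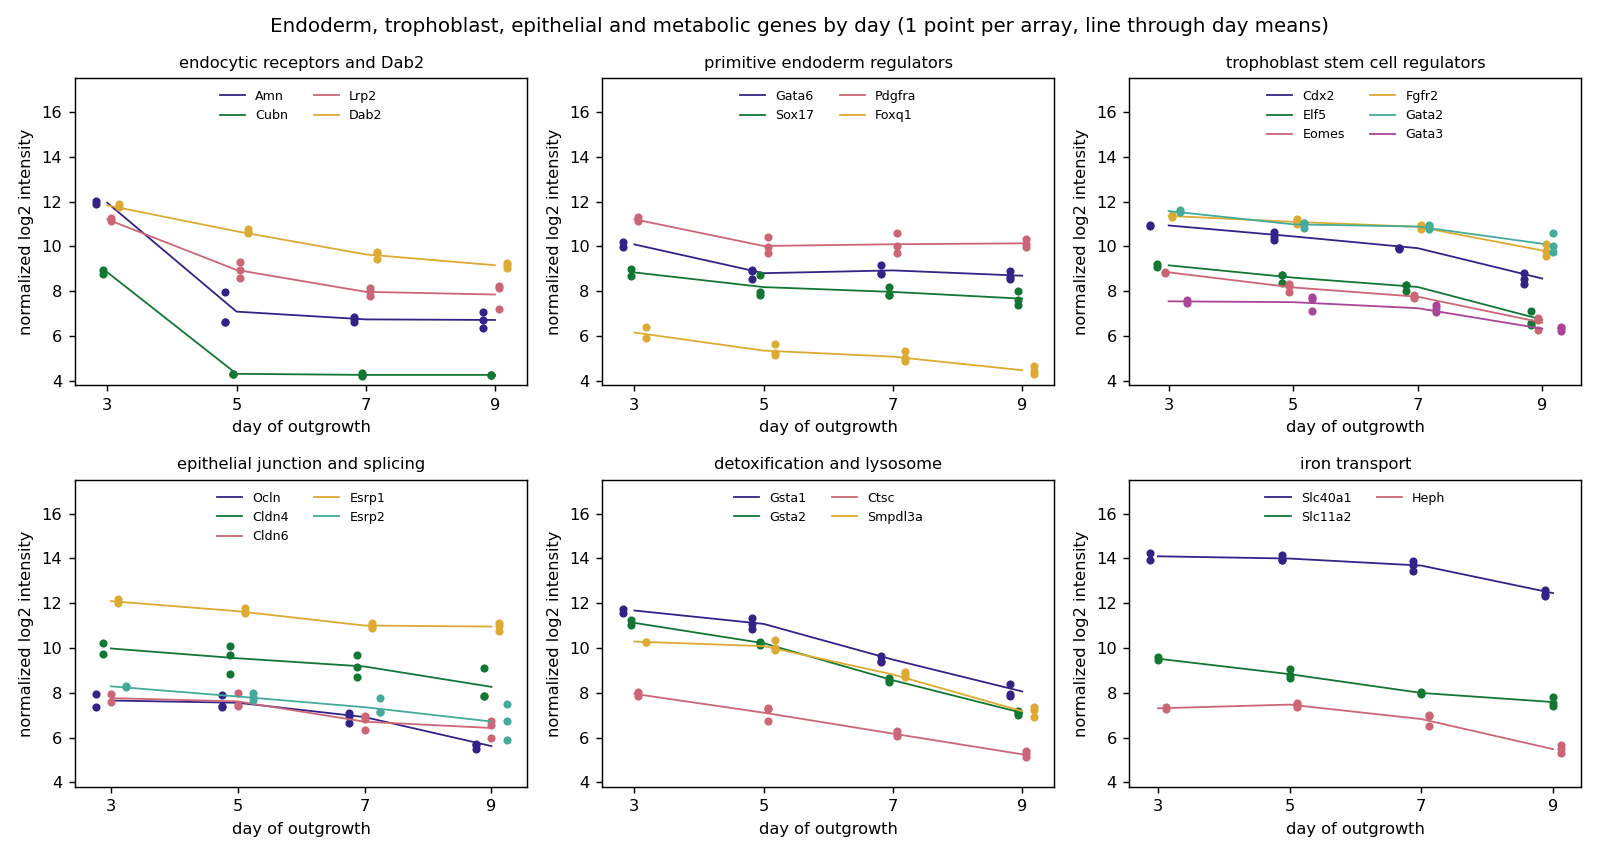
Normalized log2 intensity (y axis) against day of outgrowth (x axis), with 1 point per array, shifted sideways by gene, and lines through the day means. Amn and Cubn reach their low level by day 5, Gsta1 and Gsta2 fall at each step, and Slc40a1 and the trophoblast regulators fall most between days 7 and 9.

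Several regulators of trophectoderm and trophoblast stem cells went down, most of all after day 7. Of 22 tested on the list, 8 were lower in BO-9 and 3 higher, with a median of -0.60. Cdx2, which specifies trophectoderm, measured 10.96 and 10.90 on the BO-3 arrays, 10.64, 10.42 and 10.27 on the BO-5 arrays, 9.94, 9.91 and 9.90 on the BO-7 arrays and 8.53, 8.82 and 8.34 on the BO-9 arrays. Each day lay below the one before it without overlap, and the difference was -2.37 ± 0.17 log2, adjusted p = 2.84e-06. Elf5 (-2.43 ± 0.20 log2, adjusted p = 9.46e-06) and Eomes (-2.25 ± 0.18 log2, adjusted p = 8.82e-06), which act with Cdx2 in trophoblast stem cells, took the same course. Fgfr2, the receptor through which FGF4 maintains these cells, fell from 11.31 and 11.40 on the BO-3 arrays to 9.56, 9.80 and 10.08 on the BO-9 arrays (-1.54, adjusted p = 8.22e-05), although its second kept probe changed by -0.16. With the mean of its probes Fgfr2 was not called (-0.85). Gata2 (-1.46, adjusted p = 0.00063) and Gata3 (-1.22, adjusted p = 0.000891), which act in giant cells and trophectoderm, were lower as well.

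Id2 (-1.08, adjusted p = 0.021) and Satb1 (-1.05, adjusted p = 0.0174) completed the 8 lower genes, and neither call held without either BO-3 array or BO-9 replicate 3, nor that of Satb1 without BO-9 replicate 1 (adjusted p of 0.0583 to 0.204 for Id2 and 0.0493 to 0.123 for Satb1, at differences of -1.27 to -0.88 and -1.05 to -0.83). Without BO-9 replicate 2, Tead4 (-1.16, adjusted p = 0.00041) and Tfap2a (-1.23, adjusted p = 0.000525) passed too, giving 10 lower genes, and Tead4 also passed with BO-3 replicate 1 added (-1.39, adjusted p = 0.0321). The 3 higher genes were Esrrb (1.15, adjusted p = 0.00247) and Sox21 (1.55, adjusted p = 0.000384), which ESCs express as well, and the ligand Bmp4 (1.12, adjusted p = 0.00189). With BO-3 replicate 1 added Bmp4 had a difference of 0.28 (adjusted p = 0.77), since that array measured 8.68 where the others of day 3 had 6.12 and 6.25.

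Genes on the list of differentiated trophoblast moved both ways, 6 higher and 5 lower of 27 tested, with a median of 0.39. The list was chosen with earlier results of these data known, and its higher genes include the gastrokines Gkn1 and Gkn2. The largest rise of any gene was that of Ctsj, a cathepsin of the placenta, which measured 4.68 and 4.37 on the BO-3 arrays, 5.19, 4.77 and 4.96 on the BO-5 arrays, 7.13, 7.88 and 7.60 on the BO-7 arrays and 11.90, 10.02 and 11.85 on the BO-9 arrays. It was detected on 1 of the 2 BO-3 arrays, every BO-7 array lay above every earlier one, and every BO-9 array above those of day 7. The difference was 6.73 ± 0.44 log2, adjusted p = 1.51e-06, or 106-fold. Ctsr, another placental cathepsin, rose after day 5 (2.49, adjusted p = 0.000346). Ctsq measured 6.23 and 5.62 on the BO-3 arrays, 4.27, 4.48 and 4.74 on the BO-5 arrays, 7.78, 6.87 and 6.58 on the BO-7 arrays and 8.43, 6.07 and 8.26 on the BO-9 arrays, so that days 3 and 9 overlapped, and it was not called, though it was without BO-9 replicate 2 (2.42, adjusted p = 0.000273) and with BO-3 replicate 1 added (2.19, adjusted p = 0.0396).

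Prl4a1, a placental member of the prolactin family, was not detected on any array until day 9, when it measured 7.87, 5.81 and 7.45. Its rise is at least 5.32-fold (adjusted p = 0.00063). For Ctsj, Ctsr, Ctsq and Prl4a1 the lowest of the 3 BO-9 arrays was replicate 2. The gastrokines Gkn2 and Gkn1, secreted proteins first known from stomach, rose from day 5 on. Gkn2 measured 6.70 and 6.88 on the BO-3 arrays, 5.99, 6.45 and 5.80 on the BO-5 arrays, 9.80, 8.84 and 8.76 on the BO-7 arrays and 11.23, 11.44 and 11.06 on the BO-9 arrays, with all later arrays above all earlier ones from day 5 to day 9, and was 21.9-fold higher on day 9 than on day 3 (4.45 ± 0.29 log2, adjusted p = 1.51e-06). Gkn1 had day means of 5.33 ± 0.03, 5.34 ± 0.04, 7.20 ± 0.55 and 9.32 ± 0.34 (3.99, adjusted p = 1.51e-06). Rhox9, a homeobox gene of placenta and germ line, was the last of the 6 (1.20, adjusted p = 0.00366), and its call was lost without BO-3 replicate 2 (1.12, adjusted p = 0.0534).

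Other placental genes were lower on day 9 than on day 3. Ctsll3, a cathepsin of the same gene family as Ctsj, went from 13.93 and 13.89 on the BO-3 arrays to 11.80, 11.63 and 11.53 on the BO-9 arrays (-2.26 ± 0.15 log2, adjusted p = 1.51e-06), and was not called with the spread over those 17 arrays (adjusted p = 0.199). Wnt7b, a ligand needed where chorion and allantois fuse, went from 9.50 and 9.69 on the BO-3 arrays to 7.19, 8.27 and 7.00 on the BO-9 arrays (-2.11, adjusted p = 0.000376). Tex19.2 (-1.41, adjusted p = 0.00665), the proliferin Prl2c2 (-1.27, adjusted p = 0.0247) and the placental lactogen Prl3d3 (-1.57, adjusted p = 0.00361) were lower as well. Tex19.2 fell mostly before day 5, with day means of 9.02 ± 0.28, 8.20 ± 0.20, 8.02 ± 0.32 and 7.61 ± 0.59. Prl3d3 had day means of 8.68 ± 0.69, 6.86 ± 0.48, 8.34 ± 0.14 and 7.11 ± 0.22, low on day 5 and back near its first level on day 7, so that its slope of -0.13 was not called while its departure from a line was (adjusted p = 0.015). Tex19.2 and Prl3d3 lost their calls without BO-3 replicate 3 (-1.22, adjusted p = 0.105, and -1.08, adjusted p = 0.0836). Prl2c2, whose second kept probe changed by 0.20, lost its call without either BO-3 array or without BO-9 replicate 1 or 3 (-1.32 to -1.05, adjusted p of 0.0722 to 0.155) and with BO-3 replicate 1 added (-1.03, adjusted p = 0.0775). Plac1, a placental membrane protein, had -0.65 (adjusted p = 0.311), with 11.62 on BO-9 replicate 2 and 10.21 and 10.19 on replicates 1 and 3, and was called without replicate 2 (-1.12, adjusted p = 0.00887). Without that array the list had 7 higher and 6 lower genes and its median turned to -0.17, while with BO-3 replicate 1 added it had 8 higher and 4 lower and a median of 0.60.

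Other genes with the largest rises lay outside the lists. Chil1, a secreted chitinase-like protein, had day means of 5.57 ± 0.17, 5.14 ± 0.20, 7.14 ± 0.22 and 9.56 ± 0.51 (3.98, adjusted p = 1.51e-06). C1ql2, a secreted C1q-like protein, was not detected on the BO-3 arrays and rose at least 9.22-fold. The axon guidance ligand Slit2 measured 5.46 and 5.33 on the BO-3 arrays, 6.67, 6.61 and 6.53 on the BO-5 arrays, 8.11, 8.09 and 7.76 on the BO-7 arrays and 7.98, 8.03 and 8.07 on the BO-9 arrays, with its rise complete by day 7 (2.63, adjusted p = 6.78e-07). The endothelin receptor Ednrb was higher on day 9 (3.10, adjusted p = 0.000746), but was detected on only 1 of the BO-3 arrays, which measured 5.42 and 4.44. It had 6.79 on BO-9 replicate 2 against 8.83 and 8.48 on the other 2, and its second kept probe changed by 0.68. Ildr2 rose at least 5.3-fold and the colipase Clps at least 4.11-fold, neither being detected on the BO-3 arrays, but the second kept probe of Clps changed by 0.40.

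Among the largest falls outside the lists were the sphingosine receptor S1pr5 (8.77-fold, -3.13, adjusted p = 6.78e-07), the phosphodiesterase Smpdl3a (8.62-fold, -3.11, adjusted p = 6.78e-07), the proton and potassium pump Atp12a (7.91-fold, -2.98, adjusted p = 1.51e-06), the sarcomere protein Myom2 (7.9-fold, -2.98, adjusted p = 1.01e-05) and Tdpoz1 (7.19-fold, -2.85, adjusted p = 1.51e-06). For all 5 the 2 BO-3 arrays lay above every BO-7 and BO-9 array. S1pr5 measured 8.50 and 8.32 on the BO-3 arrays, 7.93, 7.62 and 8.05 on the BO-5 arrays, 6.29, 6.31 and 6.54 on the BO-7 arrays and 5.20, 5.52 and 5.12 on the BO-9 arrays, a fall spread over all of the 6 days.

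Epithelial junction genes fell in part. Of 20 tested, 5 were lower in BO-9 and 0 higher, with a median of -0.58, and these counts were the same without BO-9 replicate 2 and with BO-3 replicate 1 added. Ocln, or occludin, of tight junctions, measured 7.95 and 7.36 on the BO-3 arrays, 7.90, 7.36 and 7.40 on the BO-5 arrays, 6.66, 6.98 and 7.11 on the BO-7 arrays and 5.65, 5.48 and 5.73 on the BO-9 arrays (-2.04 ± 0.22 log2, adjusted p = 7.28e-05). The claudins Cldn4 (-1.71, adjusted p = 0.0181) and Cldn6 (-1.34, adjusted p = 0.00468) and the epithelial splicing factors Esrp1 (-1.14, adjusted p = 0.000512) and Esrp2 (-1.57, adjusted p = 0.0101) were also lower. The adherens junction protein Cdh1, or E-cadherin, had a difference of -0.35 (adjusted p = 0.445), with 11.82 and 11.73 on the BO-3 arrays and 11.87, 10.87 and 11.55 on the BO-9 arrays. The adhesion protein Epcam had -0.79 and was called with BO-3 replicate 1 added (-1.43, adjusted p = 0.0444), which measured 8.57 against 6.60 and 6.70. Cldn6 lost its call without BO-3 replicate 3 (-1.17, adjusted p = 0.0824), Esrp2 without either BO-3 array (-1.61 to -1.54, adjusted p of 0.0744 to 0.0926), and Cldn4 without either BO-3 array or without BO-9 replicate 1 or 3 (-1.97 to -1.46, adjusted p of 0.0538 to 0.184) and with BO-3 replicate 1 added (-1.23, adjusted p = 0.132).

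Of 18 genes of keratins and the epithelial cytoskeleton, 2 were lower, Krt18 (-1.50, adjusted p = 0.00494) and Krt7 (-1.01, adjusted p = 0.0351), and Krt23 was higher (1.32, adjusted p = 8.52e-05). Over all genes 3.25% were lower and 2.39% higher. Krt18 lost its call without BO-3 replicate 3 (-1.25, adjusted p = 0.0923) and Krt7 without any 1 of 7 arrays, which were all BO-3 and BO-7 arrays and BO-9 replicates 1 and 3 (-1.22 to -0.81, adjusted p of 0.0502 to 0.287) or with BO-3 replicate 1 added (-0.65, adjusted p = 0.267). Krt8, the partner of Krt18, measured 10.65, 11.75 and 10.70 on day 9 and was called without BO-9 replicate 2 (-1.27, adjusted p = 0.00204). The list held 1 higher and 4 lower genes without that array, and 2 higher and 1 lower with BO-3 replicate 1 added.

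Among mesenchymal genes 3 of 17 were higher in BO-9 and 0 lower, with a median of 0.02. Zeb1, a repressor of epithelial genes, measured 5.75 and 5.27 on the BO-3 arrays, 5.76, 6.16 and 5.83 on the BO-5 arrays, 7.19, 6.87 and 6.37 on the BO-7 arrays and 7.32, 7.14 and 7.33 on the BO-9 arrays (1.75 ± 0.23 log2, adjusted p = 0.000316), and no BO-9 array overlapped with day 3 or day 5. The intermediate filament Vim (1.21, adjusted p = 0.0246) and fibronectin, Fn1 (1.53, adjusted p = 0.0437), were lowest on day 9 in replicate 2, with 5.31 and 5.11. Vim lost its call without either BO-3 array or without BO-9 replicate 1 or 3 (0.90 to 1.30, adjusted p of 0.0599 to 0.174), and Fn1 without these, BO-5 replicate 1 or BO-7 replicate 2 (1.17 to 1.56, adjusted p of 0.0531 to 0.209), and its second kept probe changed by 0.44. With BO-3 replicate 1 added the list held 4 higher genes. Snai1, a repressor of E-cadherin, lay between 5.27 and 6.63 with days 3 and 9 overlapping. Of the inhibitors of matrix proteases, Timp1 rose (1.24, adjusted p = 0.000435) and Timp3 fell (-2.51, adjusted p = 6.84e-06), though the kept probes of Timp3 ran from -2.51 to 0.26. With their mean Timp3 was not called (-0.88).

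Several pluripotency genes rose, chiefly between days 3 and 7. Of 23 tested genes of the naive network 8 were higher in BO-9 and 0 lower, with a median of 0.67, and 22 of the 23 differences lay above 0. Tcl1, a cofactor of Akt that is high in ESCs, measured 8.91 and 8.84 on the BO-3 arrays, 10.31, 10.20 and 9.97 on the BO-5 arrays, 11.27, 11.00 and 11.10 on the BO-7 arrays and 11.58, 11.11 and 11.29 on the BO-9 arrays. Days 3, 5 and 7 did not overlap, and the rise was 5.47-fold (2.45 ± 0.18 log2, adjusted p = 2.79e-06). Klf2, a Krüppel-like factor that sustains the naive state, went from 8.07 and 8.21 on the BO-3 arrays to 10.22, 9.65 and 9.84 on the BO-9 arrays (1.76, adjusted p = 3.3e-05). Ooep (1.54, adjusted p = 3.46e-05) and the orphan receptor Nr0b1 (1.49, adjusted p = 0.000756) rose in their day means at each step. The adhesion protein Jam2 (1.65, adjusted p = 0.000132), Gbx2 (1.05, adjusted p = 0.0176) and Tbx3 (1.04, adjusted p = 0.0234) were also higher, with Esrrb named above. Unlike the others, Gbx2 rose only after day 7, with day means of 9.02 ± 0.10, 8.70 ± 0.18, 8.93 ± 0.23 and 10.08 ± 0.53.

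Klf4 (0.50, adjusted p = 0.117) and Zfp42, or Rex1 (0.67, adjusted p = 0.216), of the same network were not called. Esrrb lost its call without BO-3 replicate 3 (0.96), and Gbx2 without either BO-3 array or BO-9 replicate 3 (0.76 to 1.13). Tbx3 lost its call without either BO-3 array or without BO-9 replicate 2 or 3 (0.93 to 1.10). With BO-3 replicate 1 added Tbx3 was not called either (0.59, adjusted p = 0.427), but there another of its probes was the brightest and stood for it. The kept probes of Tbx3 ran from -0.07 to 1.12. Jam2 had kept probes from -0.08 to 1.65 and lost its call with their mean (0.70) and with BO-3 replicate 1 added (0.98, adjusted p = 0.183). With that array the list still held 9 higher and 0 lower genes, and without BO-9 replicate 2 it held 10 and 0.

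Of the 12 tested core factors 3 were higher and 0 lower, with a median of 0.54. Nanog measured 11.15 and 11.29 on the BO-3 arrays, 11.95, 11.87 and 12.32 on the BO-5 arrays, 12.40, 12.41 and 12.69 on the BO-7 arrays and 12.36, 12.66 and 12.83 on the BO-9 arrays. All later arrays lay above both BO-3 arrays, and the difference was 1.40 ± 0.19 log2, adjusted p = 0.000357, with 0.40 at its second kept probe. With the mean of the Nanog probes it fell short of 2-fold (0.90). Pou5f1, or Oct4, measured 6.44 and 6.37 on the BO-3 arrays, 7.63, 6.92 and 7.89 on the BO-5 arrays, 7.07, 7.39 and 7.87 on the BO-7 arrays and 8.74, 6.97 and 8.26 on the BO-9 arrays, a rise of 1.58 (adjusted p = 0.0286) that was not called without either BO-3 array or without BO-9 replicate 1 or 3 (1.21 to 1.62, adjusted p of 0.073 to 0.172). The TGF-β family ligand Gdf3 (1.03, adjusted p = 0.00693) was not called without either BO-3 array or without BO-9 replicate 1 or 2 (0.91 to 1.05, adjusted p of 0.0126 to 0.0737), and neither Pou5f1 (0.97) nor Gdf3 (0.66) with BO-3 replicate 1 added. Sox2 fell short of 2-fold at 0.94 (adjusted p = 0.00507) and passed without BO-9 replicate 1 (1.06) and with BO-3 replicate 1 added (1.15). Lin28a, an RNA-binding protein, fell by the slope but not by the difference (-0.93), which was called without BO-9 replicate 1 (-1.16, adjusted p = 0.00253). Khdc3, a protein of the oocyte's subcortical complex to which Ooep also belongs, rose (1.76, adjusted p = 0.000153), but not with BO-3 replicate 1 added (0.64, adjusted p = 0.596), which measured 11.05 against 7.72 and 7.65.

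**Figure D4:**
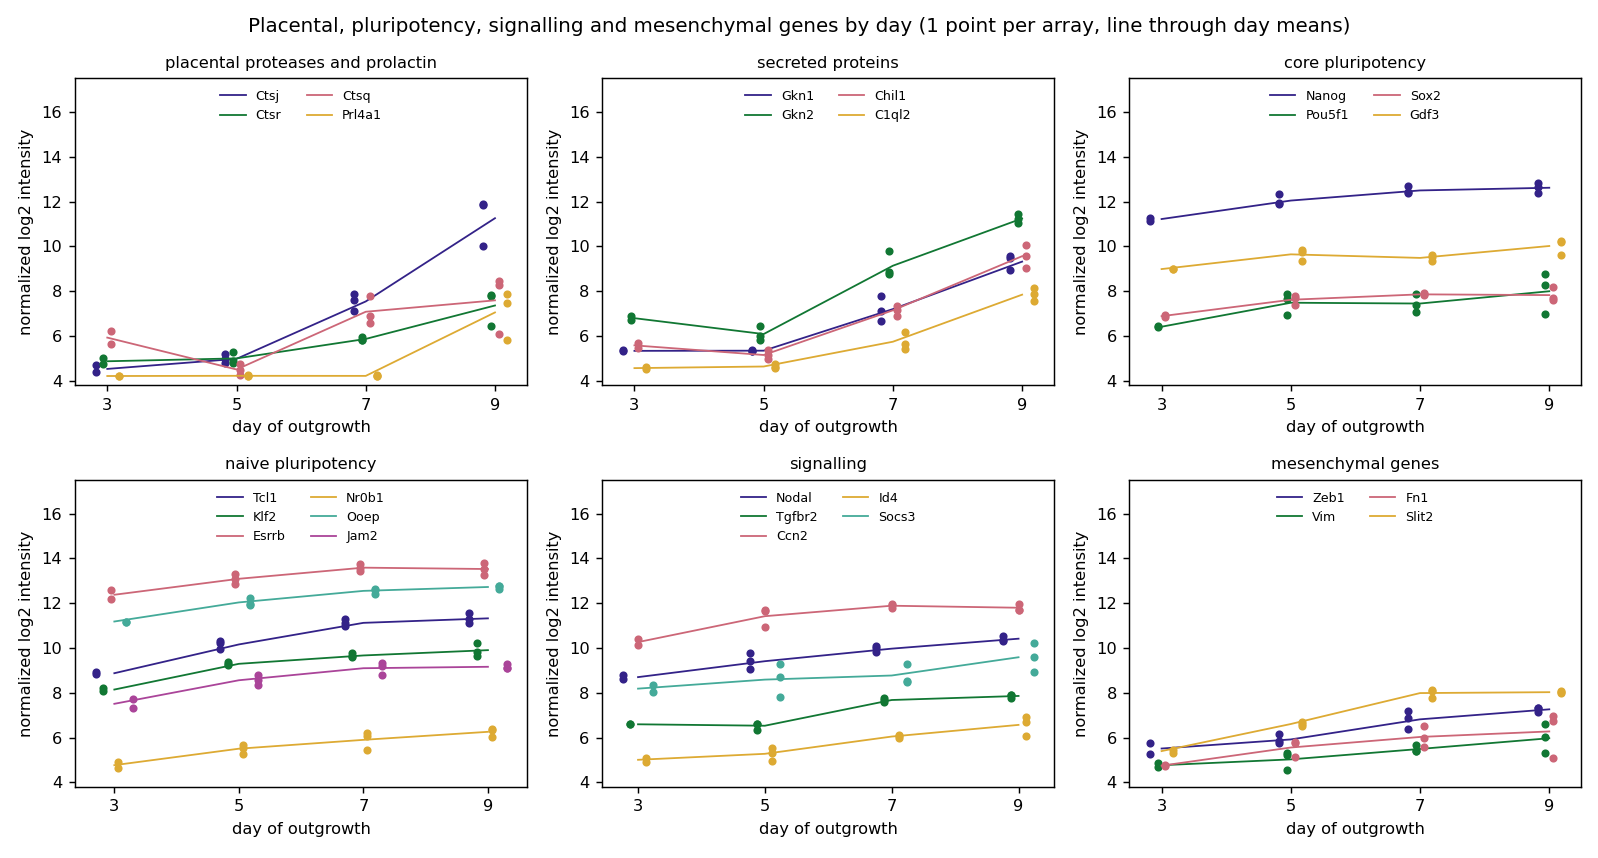
Normalized log2 intensity (y axis) against day of outgrowth (x axis), with 1 point per array, shifted sideways by gene, and lines through the day means. Ctsj, the gastrokines and Prl4a1 climb after day 5 or day 7, whereas Tcl1, Klf2 and Nanog climb from day 3 and level off by day 7.

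Fgf5, a ligand that marks epiblast leaving the naive state, fell. It measured 11.80 and 11.22 on the BO-3 arrays, 11.76, 10.09 and 10.25 on the BO-5 arrays, 8.32, 8.31 and 8.61 on the BO-7 arrays and 10.03, 6.45 and 9.37 on the BO-9 arrays. The BO-7 arrays lay together below all earlier ones, while the BO-9 arrays ran from 6.45 to 10.03, and the difference of -2.89 (adjusted p = 0.0303) was not called without either BO-3 array (-3.18 to -2.60, adjusted p of 0.121 to 0.206). Pim2 fell from 6.03 and 6.36 on the BO-3 arrays to 5.19, 4.82 and 4.91 on the BO-9 arrays (-1.22, adjusted p = 0.000881), but not with BO-3 replicate 1 added (-0.61, adjusted p = 0.378). The DNA methyltransferase Dnmt3b had -0.81 (adjusted p = 0.0142), under the 2-fold limit. Of the 13 tested genes of primed epiblast 3 were lower, with Eomes counted above, and Nodal was higher.

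Both pathways that R2i acts on held genes that changed. Nodal, a ligand of the receptors that SB431542 inhibits, measured 8.62 and 8.78 on the BO-3 arrays, 9.41, 9.05 and 9.77 on the BO-5 arrays, 9.82, 10.09 and 10.00 on the BO-7 arrays and 10.33, 10.37 and 10.55 on the BO-9 arrays. It rose at each step (1.72 ± 0.20 log2, adjusted p = 0.000111), with 0.25 at its second kept probe. With the mean of the Nodal probes it fell just short of 2-fold (0.99). Tgfbr2, the type II receptor of TGF-β, rose between days 5 and 7 from day means of 6.53 ± 0.16 to 7.68 ± 0.10 (SD, n = 3 each) and was higher on day 9 than on day 3 (1.27, adjusted p = 0.000129). The matrix protein Ccn2 rose by day 5 (1.54, adjusted p = 0.000498), though not with BO-3 replicate 1 added (0.54, adjusted p = 0.626). These 3 were the called genes of 14 tested on the Nodal and TGF-β list, whose median was 0.12.

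Of 22 targets and feedback inhibitors of ERK, the kinase below MEK, 3 were lower in BO-9 and 0 higher, with a median of -0.21. The phosphatase Dusp6 went from 12.51 and 12.15 on the BO-3 arrays to 11.54, 9.87 and 11.22 on the BO-9 arrays (-1.45, adjusted p = 0.0245), and Dusp4 from 8.31 and 8.24 on the BO-3 arrays to 6.81, 6.25 and 6.57 on the BO-9 arrays (-1.74, adjusted p = 0.000323). Dusp6 lost its call without either BO-3 array (-1.63 and -1.27) or BO-9 replicate 2, where it was -0.94. Dusp4 has 3 kept probes, which ran from -1.74 to -0.77. The brightest probe was chosen anew in each fit, and in 6 of the fits that leave out 1 array another probe stood for Dusp4. These are the fits without either BO-3 array, BO-5 replicate 1, BO-5 replicate 2, BO-7 replicate 1 or BO-9 replicate 2. At that probe Dusp4 was not called (-0.87 to -0.23). The immediate early gene Fosb (-1.04, adjusted p = 0.00996) lost its call without BO-3 replicate 2 or BO-9 replicate 3 (-0.97 to -0.89) and with BO-3 replicate 1 added (-0.70). Without BO-9 replicate 2 the list held 1 higher and 3 lower genes. Of the 16 genes of the LIF list 1 was called, where 5.64% of all genes were. It was Socs3, a target and inhibitor of LIF signalling (1.40, adjusted p = 0.0448). Its call was lost without any 1 of 7 arrays, which were both BO-3 arrays, BO-5 replicate 1, BO-7 replicates 1 and 2 and BO-9 replicates 1 and 3 (1.09 to 1.57, adjusted p of 0.0569 to 0.26) and with BO-3 replicate 1 added (1.15, adjusted p = 0.104). Of the BMP list Id4 was higher (1.56, adjusted p = 0.000754), beside Bmp4 and Id2 above.

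Several lists of chromatin and metabolism held no called gene. Of 25 Polycomb and trithorax subunits, 13 genes of DNA methylation, 36 of the respiratory chain and 34 of DNA replication, 0 were called in either direction by limma, while 4, 4, 7 and 5 of them had an unadjusted p under 0.05. Over all 10961 genes 2845 had such a p and 5.64% were called, so that a lack of calls in lists this short says little about them. Without BO-9 replicate 2, 1 gene each of the Polycomb and trithorax list and the DNA methylation list was higher. The Polycomb and trithorax subunits ran from -0.42 to 0.88. Of 33 cytosolic ribosomal proteins 3 were higher and 0 lower, with 29 above 0 and a median of 0.37, and the 3 were Rpl12 (1.03, adjusted p = 0.0257), Rpl26 (1.36, adjusted p = 0.0313) and Rps15 (1.19, adjusted p = 0.00116). That count was 6 without BO-9 replicate 2 and 1 with BO-3 replicate 1 added, where Rpl26 had 1.01 (adjusted p = 0.142). Rpl26 also lost its call without either BO-3 array or without BO-9 replicate 1 or 3 (1.06 to 1.38, adjusted p of 0.0617 to 0.176). All 30 mitosis genes had differences above 0, with a median of 0.35, and 1 passed, Birc5 (1.13, adjusted p = 0.0384), which did not pass without any 1 of 6 arrays, the BO-3 arrays, BO-7 replicates 1 and 2 and BO-9 replicates 1 and 3 (0.85 to 1.28, adjusted p of 0.053 to 0.263) nor with BO-3 replicate 1 added (0.72, adjusted p = 0.278). Of 17 genes of cholesterol and fatty acid synthesis 16 had differences below 0, with a median of -0.68, and 0 passed both limits in limma, while 12 had an unadjusted p under 0.05, to be set beside the 2845 of 10961 over all genes. Sqle (-0.95, adjusted p = 0.00453), Idi1 (-0.97, adjusted p = 0.00953) and Msmo1 (-0.88, adjusted p = 0.00359) of that pathway fell short of 2-fold, and 4 of its genes were called as lower where arrays were scaled by their medians. Idi1 was called without BO-9 replicate 1 or 3 (-1.12 to -1.08) and with BO-3 replicate 1 added (-1.07), and Msmo1 without BO-3 replicate 2 or BO-9 replicate 1 (-1.01). With BO-3 replicate 1 added Sqle had -0.55 (adjusted p = 0.271), Msmo1 -0.53 (adjusted p = 0.227) and the list a median of -0.27, and the second kept probe of Sqle changed by -0.0089. Of 9 tested endothelial markers the angiopoietin receptor Tek (1.24, adjusted p = 0.00115) and Vwf (1.44, adjusted p = 0.00442) were higher, Vwf not without BO-3 replicate 3 (1.32, adjusted p = 0.0686), while Cdh5 on days 3 and 9 overlapped. Of 20 imprinted genes Slc38a4 (-1.28, adjusted p = 0.0028), Sfmbt2 (-1.35, adjusted p = 0.000333) and Igf2r (-1.03, adjusted p = 0.00262) were lower and Ndn (1.00, adjusted p = 0.00204) higher. Igf2r, whose second kept probe changed by -0.34, lost its call with the mean of its probes (-0.69) and without BO-3 replicate 2 or BO-9 replicate 3 (-0.99 to -0.91), and Ndn without BO-3 replicate 2 or BO-9 replicate 2 or 3 (0.93 to 0.98).

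Of the 78 genes whose day means departed from a straight line, 28 were highest on day 3, 28 on day 5, 9 on day 7 and 13 on day 9. Those highest on day 3 include Cubn, Amn, Spink1 and Ttr above, the growth factor Fgf10, with day means of 8.91 ± 0.02, 6.52 ± 0.41, 6.40 ± 0.57 and 6.79 ± 0.19, and the peptidase Dpp4, with 7.19 ± 0.09, 5.58 ± 0.26, 5.73 ± 0.16 and 5.81 ± 0.15. Nostrin, a regulator of nitric oxide synthase traffic, was low on day 5 alone, at 8.01, 8.30 and 8.01, where the arrays of all other days lay between 9.37 and 10.03 (adjusted p = 0.000608). Among those highest on day 9, Mgst2, a microsomal glutathione transferase, dipped on day 5 and then rose (1.62, adjusted p = 7.67e-05). Clic6, a chloride channel protein, fell from 7.62 and 7.16 on the BO-3 arrays to 5.09, 5.19 and 5.41 on the BO-9 arrays with a departure at an adjusted p of 0.000442. The departures of Fgf10 and Dpp4 were not called without either BO-3 array, nor with BO-3 replicate 1 added, which also ended that of Clic6. The count of 78 came to 14 without BO-3 replicate 3, 23 without BO-3 replicate 2, 25 without BO-7 replicate 2, 33 without BO-7 replicate 3, 43 without BO-5 replicate 3, 45 without BO-5 replicate 2, 299 without BO-9 replicate 2 and 10 with BO-3 replicate 1 added.

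Interferon-inducible genes were among the 28 that peaked on day 5. Interferons signal through STAT and IRF factors, and IRF factors bind short repeats of GAAA in the promoters of genes against viruses. Ifit3, an interferon-induced protein, measured 7.00 and 6.93 on the BO-3 arrays, 8.51, 8.69 and 8.64 on the BO-5 arrays, 7.40, 7.31 and 7.47 on the BO-7 arrays and 5.30, 5.56 and 5.80 on the BO-9 arrays. The 3 BO-5 arrays lay together above all others and the BO-9 arrays below all others (adjusted p of the departure = 1.97e-05). Gbp2b, a guanylate-binding GTPase, measured 9.67 and 9.69 on the BO-3 arrays, 10.80, 10.88 and 10.83 on the BO-5 arrays, 9.79, 10.35 and 10.09 on the BO-7 arrays and 8.27, 8.73 and 8.45 on the BO-9 arrays (adjusted p = 0.000442). Its relatives Gbp3, with day means of 7.54 ± 0.11, 8.78 ± 0.11, 8.53 ± 0.42 and 6.75 ± 0.30, and Gbp2, with 6.20 ± 0.20, 7.35 ± 0.13, 6.61 ± 0.19 and 5.78 ± 0.28, departed as well (adjusted p = 0.00137 and 0.00558), and their probes may share transcripts of this closely related family. Oasl2, an oligoadenylate synthetase-like protein, measured 9.08, 9.07 and 9.07 on day 5 and between 7.52 and 8.60 on all other arrays (adjusted p = 0.00558).

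BO-3 replicate 1 measured 5.63 for Ifit3, 8.14 for Gbp2b, 5.44 for Gbp3, 5.53 for Gbp2 and 6.78 for Oasl2, below the other BO-3 arrays in each case. With it added Gbp2b and Gbp3 no longer departed, while Ifit3, Gbp2 and Oasl2 still did. Without BO-3 replicate 3 the departures of Gbp2 and Oasl2 were not called. Genes outside the interferon response peaked on day 5 too, such as the peptide transporter Slc15a2, at 10.13, 10.04 and 9.63 on day 5 and 6.33 to 9.37 on the other arrays, and the lectin-like receptor Klra22, at 10.20, 9.83 and 9.51 and 7.56 to 9.37.

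The promoters of the 4 genes that peaked on day 5 and hold the repeat are shown because it was the sequence feature searched in this group. Each run spans 250 bases before to 50 after the start site in RefSeq (GRCm38.p6), on the plus strand, and capitals mark GAAANNGAAA in either orientation, so TTTCNNTTTC as read here. In Gbp3 a pair of matches overlap.
Ifit3, chr19:34583279-34583578: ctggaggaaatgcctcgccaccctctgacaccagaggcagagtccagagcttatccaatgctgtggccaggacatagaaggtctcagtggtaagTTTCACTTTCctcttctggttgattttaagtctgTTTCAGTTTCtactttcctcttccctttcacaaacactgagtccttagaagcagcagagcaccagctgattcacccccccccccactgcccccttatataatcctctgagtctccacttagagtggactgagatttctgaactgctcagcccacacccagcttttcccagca
Gbp2b, chr3:142594597-142594896: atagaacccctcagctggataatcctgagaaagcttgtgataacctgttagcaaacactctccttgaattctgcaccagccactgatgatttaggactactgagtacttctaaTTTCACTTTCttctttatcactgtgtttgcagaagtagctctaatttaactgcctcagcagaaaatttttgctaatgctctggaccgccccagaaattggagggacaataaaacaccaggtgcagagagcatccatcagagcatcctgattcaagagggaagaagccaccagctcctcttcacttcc
Gbp3, chr3:142559794-142560093: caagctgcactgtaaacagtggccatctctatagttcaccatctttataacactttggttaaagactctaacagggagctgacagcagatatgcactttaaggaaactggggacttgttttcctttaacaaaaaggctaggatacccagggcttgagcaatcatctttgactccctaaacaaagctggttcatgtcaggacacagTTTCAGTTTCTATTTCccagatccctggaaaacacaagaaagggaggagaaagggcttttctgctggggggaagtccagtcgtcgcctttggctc
Gbp2, chr3:142620413-142620712: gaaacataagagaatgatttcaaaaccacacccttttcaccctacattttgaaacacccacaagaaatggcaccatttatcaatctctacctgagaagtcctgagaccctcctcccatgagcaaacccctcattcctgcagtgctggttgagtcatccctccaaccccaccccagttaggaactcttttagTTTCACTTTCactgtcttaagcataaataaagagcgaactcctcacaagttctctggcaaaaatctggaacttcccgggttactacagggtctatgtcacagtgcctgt

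The repeat was searched on both strands and lies in 3.44% of 32851 promoters. Of the 28 genes highest on day 5, 19 had a promoter to search and 4 of these (21.1%) held it, against 2 of 35 (5.71%) among departing genes highest on other days. The motif was chosen after the values of these genes were seen, and the holders Gbp2, Gbp2b and Gbp3 are relatives close together on chr3. These shares are therefore a description and not a test. Of the 22 searched genes of the interferon list 12 (54.5%) held it. Oasl2 and Slc15a2 had no match, which says only that these letters are not in that window.

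The interferon list as a whole did not share the peak. Of 24 tested, 6 were higher in BO-9 and 2 lower, with a median of 0.22. The membrane proteins Ifitm1, Ifitm2 and Ifitm3, which hinder the entry of viruses, rose. Ifitm1 measured 9.38 and 9.35 on the BO-3 arrays, 10.35, 10.23 and 10.10 on the BO-5 arrays, 10.17, 10.23 and 10.37 on the BO-7 arrays and 11.03, 10.56 and 10.72 on the BO-9 arrays (1.40, adjusted p = 0.000132). Ifitm2 (1.86, adjusted p = 0.000774) and Ifitm3 (1.44, adjusted p = 0.000881) took the same course. The antiviral enzyme Rsad2 (1.48, adjusted p = 0.000333), Ifi27 (1.47, adjusted p = 0.00404) and B2m (1.05, adjusted p = 0.017), the light chain of class I histocompatibility molecules, were also higher. Ifi27 lost its call without BO-3 replicate 2 (1.34, adjusted p = 0.0625) and B2m without either BO-3 array or BO-9 replicate 2 (0.82 to 1.20, adjusted p of 0.0264 to 0.175). Ifit3 (-1.41, adjusted p = 0.000129) and the proteasome subunit Psmb9 (-1.62, adjusted p = 0.000266) were lower, and with BO-3 replicate 1 added neither was, at -0.97 (adjusted p = 0.0634) and -1.09 (adjusted p = 0.0796). Ptprc was detected on 0 arrays, and Csf1r overlapped between days 3 and 9. 

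**Figure D5:**
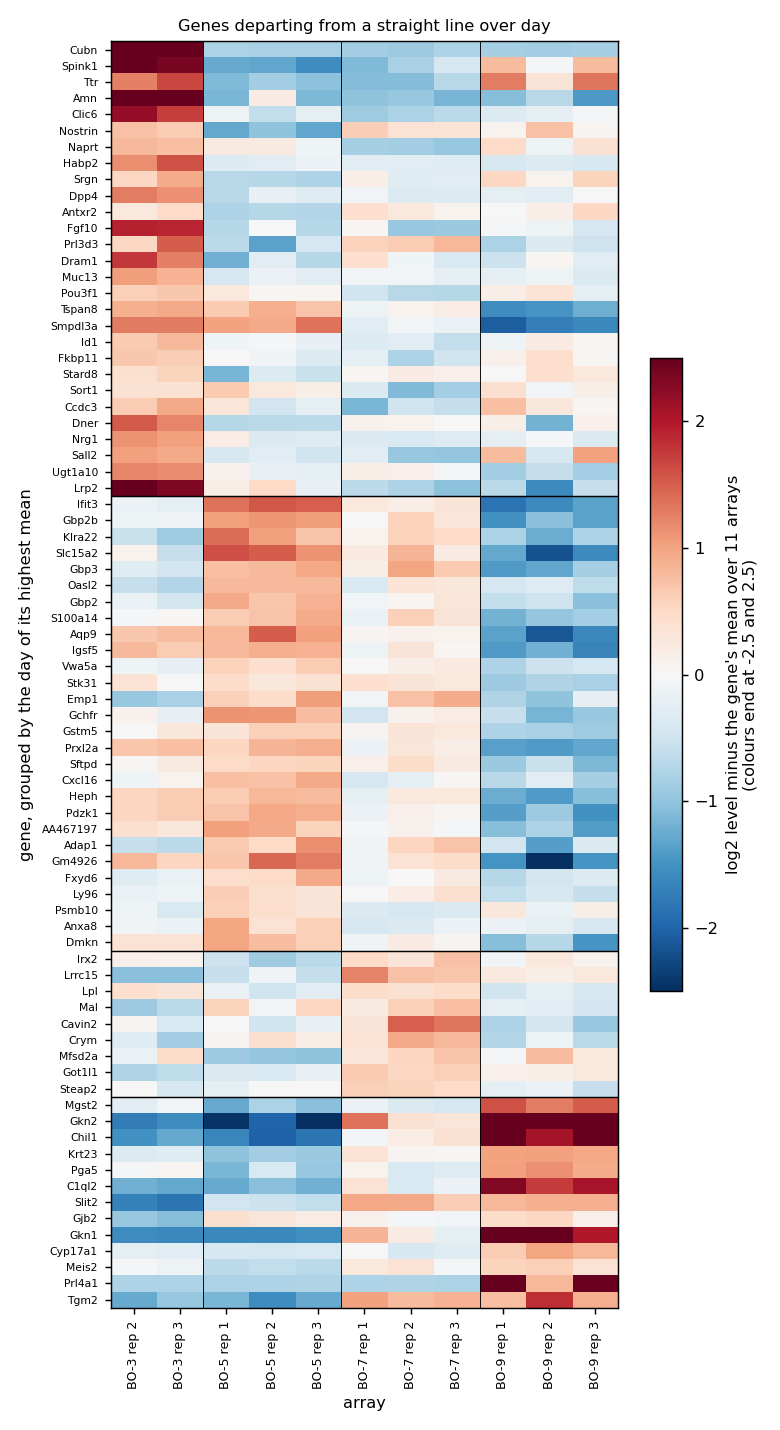
Each row is 1 of the 78 genes whose day means departed from a straight line and each column 1 array. Colour gives the log2 level minus the gene's mean over the 11 arrays, ending at -2.5 and 2.5, and black lines part the genes by the day of their highest mean. The 28 genes highest on day 5 include Ifit3, Gbp2b, Gbp3, Oasl2 and Gbp2.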

How the data were processed

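Total RNA of pooled outgrowths was amplified in 2 rounds, labelled and hybridised to Illumina Mouse WG-6 arrays. The authors deposited the bead intensity of each probe as extracted by GenomeStudio, with no background correction or normalization, and beside it a detection p-value, low where a probe is brighter than the negative controls. They also deposited log2 values, background corrected and quantile normalized by neqc of limma and lowered by a constant, which per array matched the values computed here with r of at least 0.9999975 and were used as an alternative. No tool version or genome build is given in the sources used here.

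The intensities of all 18 arrays of the run were processed here by neqc (limma 3.58.1, R 4.3.3, offset of 16). Probes detected (p under 0.05) on at least 2 of the 11 arrays were kept, and of 45281 probes 34885 had 1 gene symbol in GEO's platform annotation, 18 several and 10378 none. Symbols were updated through Entrez IDs, and the probe with the brightest mean stood for each of 10961 genes. In alternative fits the brightest probe was chosen anew, so that a gene's probe could change. limma was fitted once with day as a number and once with the 4 days as groups. The departure from a line is the F test of the quadratic and cubic terms. Errors beside differences are standard errors, errors beside means SDs. Adjusted p-values are Benjamini-Hochberg over all genes. A gene not detected on any array of a day has a fold against the lowest detected signal, written as "at least". The procedure was run on simulated data with independent noise in each gene and array. Such data hold no array-wide differences, so the effect of these on the calls was not tested.

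Named genes are the 12 largest rises and falls called by both measures, the 8 clearest departures, members of 35 gene lists, genes the study names, and Actb, Gapdh and Hprt, with clone names left out. The members and the lists were chosen with earlier results of these data known. S1pr5 and other genes outside the lists come from that rule, while Nostrin, Fgf10, Dpp4, Klra22, Slc15a2 and Gbp3 were chosen after their values were seen, as was the searched motif. Promoters are RefSeq's on GRCm38.p6. BO-3 replicate 1 entered only the fits that name it. The number of arrays limits the precision.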

Additional observations from a re-analysis of the deposited data

How the results depend on the processing

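By the slope 617 genes were called and by the difference 618. An offset of 50 lowered these to 349 and 347, and no background correction to 225 and 226, with rising genes at 32.4% and 33.2% of them instead of 44.1% and 42.4%. With BO-3 replicate 1 added they were 588 and 578, of which 59% rose and 56.1% were higher, and Ttr turned from -0.49 to 0.21 (adjusted p = 0.818). Leaving out 1 array gave 574 to 683 by the slope and 462 to 747 by the difference.

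Departures from a line, 78 in all, came to 50 without background correction, 50 with median scaling, 45 with no filter on dim probes, 10 with BO-3 replicate 1 added, 632 with array weights and 21 at an adjusted p of 0.01. Leaving out 1 array gave 14 (BO-3 replicate 3) to 299 (BO-9 replicate 2). The causes were not tested, except that fewer arrays or a stricter limit are part of those settings. Of 112 named genes called by the difference, 46 were called under every alternative that could be run. With the spread estimated over 17 arrays, ICM and ESC included, some named genes lost their call at an unchanged difference. They were Ctsll3 (-2.26, adjusted p = 0.199), Slc40a1 (-1.64, 0.163), Pdgfra (-1.07, 0.252), Krt7 (-1.01, 0.177), Ifi27 (1.47, 0.0812), Prl2c2 (-1.27, 0.053) and Rhox9 (1.20, 0.0518). B2m fell short of 2-fold there (0.86, adjusted p = 0.0266), because another of its probes stood for it. Clps (0.93) and Heph (-0.89) fell short of 2-fold without background correction. So did many other named genes, among them Zeb1 (0.85), Tgfbr2 (0.79) and Ctsh (-0.80). Bmp4, Id4, Nr0b1, Tek, Gata3, Foxq1, Sfmbt2, Krt23 and Dkk1 were among those that lost their calls both there and with an offset of 50. Apart from the replicate block below, the other alternatives kept each count within 1.5 times.

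The replicate numbers are not known to pair arrays across days. Over 15 pairs with the same number r ran from -0.10 to 0.40 after day means were removed, with 9 over 0.1. With a replicate block the counts were 624 by the slope, 639 by the difference and 134 departures.

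With 2 arrays on day 3, changes that start from low levels there rest on few measurements, and those of dim genes are compressed by the offset. Amplification in 2 rounds can distort relative levels, and pools of outgrowths do not show which cells carried an RNA.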

Other observations

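Of the kept probes, 2645 had no single gene symbol and took no part in the counts of genes. Of these, 30 rose and 47 fell by the slope at the same limits. Between BO-9 replicate 2 and the mean of replicates 1 and 3, 354 genes were at least 2-fold lower and 262 at least 2-fold higher. Of the 262 genes higher in BO-9 than in BO-3, 20 were at least 2-fold lower in replicate 2 than in the other BO-9 arrays.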
